A study of Mus musculus with 12 samples.

Results

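miR-103 and miR-107 are 2 of the 650 miRNAs with probes on a mouse miRNA array that was hybridised with RNA of mouse embryonic fibroblasts under endoplasmic reticulum stress. They were taken by the names mmu-miR-103 and mmu-miR-107 that the array design gives its probes, with no threshold on their values. The pair had been chosen by an earlier look at the measured levels of these same arrays over all 6 groups, so the p-values below describe these arrays and are not independent evidence. The fibroblasts were of C57BL/6 background and either lacked the transcription factor ATF6a or were wild type. The 6 groups, of 2 arrays each, were knockout cells left untreated, knockout cells given 2 ug/mL tunicamycin for 12 h or for 24 h, and wild type cells left untreated or given the same tunicamycin for 12 h or for 24 h. The series describes the replicates as independent experiments. The labels do not say how the ATF6a allele was disrupted, nor whether the fibroblasts came from one embryo or several, or were immortalised. ATF6a mRNA is not measured by a miRNA array, and the genotype was therefore not checked.

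miR-103 and miR-107 form a family of vertebrate miRNAs that are encoded within introns of genes for pantothenate kinases, the enzymes that begin coenzyme A synthesis. In mice they are known for lowering insulin sensitivity in liver and fat, where they target caveolin-1, and in tumour cells for targeting Dicer, the enzyme that cuts miRNA precursors. Tunicamycin blocks N-linked glycosylation, unfolded proteins then accumulate in the endoplasmic reticulum, and ATF6a is one of the sensors that respond by entering the nucleus as a transcription factor. A mature miRNA finds its targets mainly through its seed, bases 2 to 8 from the 5′ end.

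The mature sequences of both members are shown because they differ by a single base, which bears on what the probes can tell apart. The seed is in capitals, and the sequences are those of RefSeq (GRCm38.p6).
mmu-miR-103-3p: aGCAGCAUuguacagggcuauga
mmu-miR-107-3p: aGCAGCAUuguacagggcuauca
Of 23 bases, 22 were identical, and the substitution was G22C, counted from the 5′ end of miR-103 and written with the base of miR-103 first. The seed GCAGCAU occurred in these 2 names and in no other of the 1679 mature mouse miRNA names in the RefSeq table. The probe sequences are not in the array files, so how far the probes of either miRNA also bind the other was not tested.

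RefSeq places miR-103 at 2 loci with the same mature sequence. Mir103-1 lies within Pank3 at chr11:35782396-35782481, Mir103-2 within Pank2 at chr2:131288052-131288137, both on the plus strand, and Mir107 within Pank1 at chr19:34820687-34820773 on the minus strand, each on the strand of its host gene. The 3 hairpins are shown because the array measures only the mature part, in capitals, at bases 52 to 74 of each hairpin.
Mir103-1: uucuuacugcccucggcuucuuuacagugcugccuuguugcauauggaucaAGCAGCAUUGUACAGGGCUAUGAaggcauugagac
Mir103-2: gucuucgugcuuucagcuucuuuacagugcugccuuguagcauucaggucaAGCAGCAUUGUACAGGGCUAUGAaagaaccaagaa
Mir107: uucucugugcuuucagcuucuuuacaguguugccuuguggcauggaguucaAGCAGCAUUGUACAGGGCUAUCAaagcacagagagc
Over its whole length the Mir103-1 hairpin was 80.2% identical to Mir103-2 and 80.5% identical to Mir107, and Mir103-2 was 83.9% identical to Mir107. The mature sequence of both Mir103 loci is the same, so the miR-103 signal is their sum.

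Windows of 300 bases at RefSeq starts of the host genes were searched on both strands. For Pank1 none of them reached the outermost start of the gene, at chr19:34883423, which was therefore not searched. The search was for elements through which ATF6 is known to act, and for their short parts CCACG and CCAAT, which reads ATTGG on the other strand. The endoplasmic reticulum stress response element, CCAAT and CCACG with 9 bases of any kind between them, was found in 0 of 6 windows of Pank1, Pank2 and Pank3, and in 0.119% of all 32851 promoter windows. The related element, ATTGG and CCACG with any base between them, was likewise found in 0 of 6 windows, and in 0.0365% of all windows. The short parts were found more widely, CCACG in 3 of 6 windows against 32.8% of all, and CCAAT in 3 of 6 windows against 37.4%. These counts describe the letters in the windows and nothing beyond them.

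Each miRNA had a bright and a dim probe with 10 spots each, and a miRNA's level is the mean of both on a log2 scale, after each array was divided by a common signal of its own (its 75th percentile, taken over 87 probes detected everywhere). By the scanner software's mark of detection, a signal well above background, an array held 85 to 171 miRNAs, and 175 entered the tests. On the 4 arrays of scanning run 4, which hold replicate 2 of every tunicamycin group, the number was 85 to 144, against 129 to 171 on the other 8 arrays. Scanning runs are numbered here by the order of the scan dates in the file headers. Untreated arrays shared 1 slide and tunicamycin arrays another, and effects of slide and of treatment cannot be told apart. All knockout arrays lay in row 2 of their slide and all wild type arrays in row 1, so genotype and row cannot be told apart either. Of 8 fibroblast marker miRNAs, 5 were detected on all arrays, among them miR-21 and miR-214, and miR-145 was detected on none. Together the 8 gave 17.3% to 34.5% of the total signal on tunicamycin arrays and 42.7% to 45.9% on untreated arrays. Markers of blood (0 of 5), endothelium (0 of 2), epithelium (0 of 6), nerve (0 of 2) and liver (0 of 1) were detected on no array. At most 1 of 4 muscle markers and 1 of 7 pluripotency markers were detected on an array. Fewer cells of a type and less RNA per cell cannot be told apart in such bulk RNA.

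The bright probe of miR-103 was well above background on all 12 arrays, before scaling, with mean spot intensities between 38.7 and 199. In knockout cells its intensities in replicates 1 and 2 were 199 and 136 untreated, 130 and 88.1 at 12 h, and 129 and 65.5 at 24 h. Wild type cells gave 109 and 120 untreated, 123 and 54.1 at 12 h, and 87.8 and 38.7 at 24 h. In all 4 tunicamycin groups the second replicate was the dimmer one. The bright probe of miR-107 was also well above background on all 12 arrays, with 152 and 123 in untreated knockout cells, 117 and 99.1 at 12 h, and 108 and 53.2 at 24 h. Wild type cells gave 88.6 and 105 untreated, 115 and 67.3 at 12 h, and 85.5 and 34.4 at 24 h. It showed the same dimmer second replicate in each tunicamycin group.

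After scaling, miR-103 was lower on all 8 tunicamycin arrays than on any of the 4 untreated arrays. How many of all tested miRNAs did so was not counted. Within a genotype, 38.9% and 36.6% of them lay wholly below untreated in knockout cells at 12 h and 24 h. In wild type cells the shares were 55.4% and 51.4%. In knockout cells the log2 level of miR-103 in replicates 1 and 2 was -2.80 and -2.86 untreated, -3.09 and -3.86 after 12 h of tunicamycin, and -3.22 and -3.32 after 24 h. Wild type values were -2.93 and -2.91 untreated, -3.48 and -3.67 after 12 h, and -3.57 and -3.60 after 24 h. The widest gap between replicates was that of the 12 h knockout group, where replicate 2 was the lowest of all 12 values. On that array the SD of the negative control spots was 12.1 intensity units, against 2.22 to 4.86 on the other 11 arrays, and its part in the result was not tested.

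**Figure D1:**
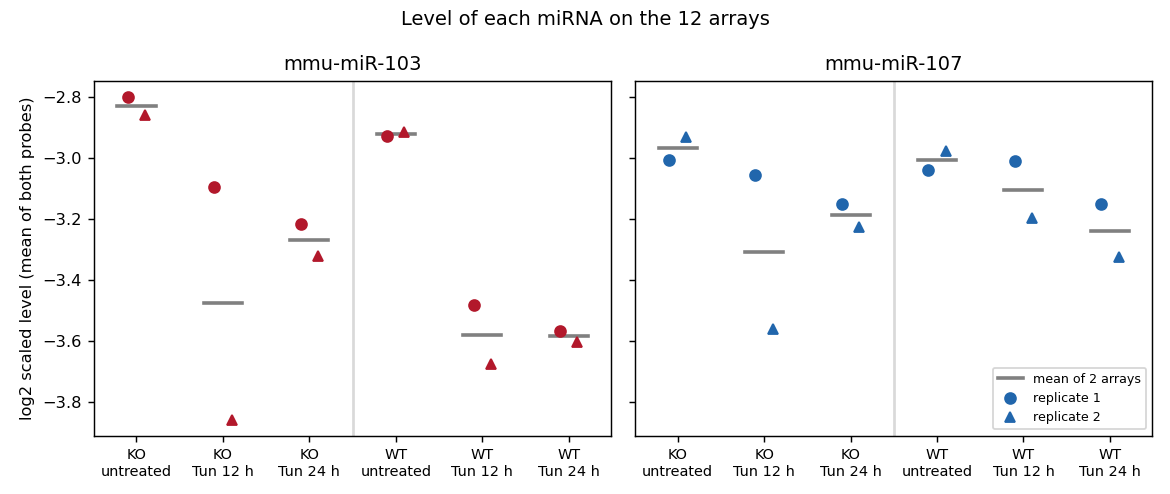
Log2 scaled level of miR-103 (left) and miR-107 (right) on each of the 12 arrays by group, with replicate 1 as circles, replicate 2 as triangles and the mean of 2 arrays as a grey bar (KO, ATF6a knockout; WT, wild type; Tun, tunicamycin). All 8 tunicamycin values of miR-103 lie between -3.86 and -3.09, below its 4 untreated values, which lie between -2.93 and -2.80. Within a genotype and time, 36.6% to 55.4% of all tested miRNAs lay wholly below untreated. The wild type 12 h values of miR-107 of -3.01 and -3.20 reach those of untreated cells.

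miR-107 varied less. In knockout cells its log2 level was -3.00 and -2.93 untreated, -3.05 and -3.56 after 12 h, and -3.15 and -3.23 after 24 h. Wild type values were -3.04 and -2.97 untreated, -3.01 and -3.20 after 12 h, and -3.15 and -3.32 after 24 h. Both knockout tunicamycin groups and the wild type 24 h group lay below their untreated group, and the wild type 12 h group overlapped it.

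By group mean, miR-103 stood highest in untreated knockout cells, at -2.83 ± 0.0413 (SD, n = 2), followed by untreated wild type cells at -2.92 ± 0.0081. The tunicamycin groups followed, with knockout 24 h at -3.27 ± 0.0736, knockout 12 h at -3.47 ± 0.54, wild type 12 h at -3.58 ± 0.14 and wild type 24 h at -3.58 ± 0.0261. Neighbouring tunicamycin groups in this order overlapped, and the tunicamycin groups did not overlap the untreated ones. The shares of all tested miRNAs that lay wholly below untreated within a genotype are given above. For miR-107 the order was untreated knockout at -2.97 ± 0.052, untreated wild type at -3.01 ± 0.045, wild type 12 h at -3.10 ± 0.13, knockout 24 h at -3.19 ± 0.0535, wild type 24 h at -3.24 ± 0.12 and knockout 12 h at -3.31 ± 0.36. Each neighbouring pair of groups in that order overlapped.

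The first question was whether tunicamycin changed the level of either miRNA within a genotype. miR-103 passed the test as lower in wild type cells at both times, and miR-107 at neither. Neither miRNA passed it in knockout cells. Each level includes a dim probe, kept because it was well above background on both replicates of the untreated groups and no others. On its bright probe alone, miR-103 did not pass in wild type cells (limma, adjusted p = 0.11 at 12 h and 0.383 at 24 h). In knockout cells the log2 difference of miR-103 between 12 h of tunicamycin and no treatment was -0.65 ± 0.22 (SE, n = 2 arrays per group, 95% interval -1.16 to -0.14; limma, adjusted p = 0.0892). That comparison called 17.1% of the 175 tested miRNAs, 14.3% as lower, and the median difference of all tested miRNAs was -0.0872. In 38.9% of them, miR-103 and miR-107 included, the 12 h values lay wholly below the untreated ones. At 24 h in knockout cells the difference of miR-103 was -0.44 ± 0.22 (95% interval -0.95 to 0.0713; limma, adjusted p = 0.269), beside 10.3% of all miRNAs called, 8.0% as lower, 36.6% wholly below untreated and a median of -0.0005.

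After 12 h of tunicamycin miR-103 was lower in treated than in untreated wild type cells, by a log2 difference of -0.66 ± 0.22 (95% interval -1.17 to -0.15; limma, adjusted p = 0.0415). The comparison called 44.6% of all tested miRNAs, 38.3% as lower, and 55.4% had 12 h values wholly below the untreated ones, with a median difference of -0.27. After 24 h miR-103 was lower by a log2 difference of -0.66 ± 0.22 (95% interval -1.17 to -0.15; limma, adjusted p = 0.0432). Both values average in a dim probe that was not well above background on the wild type tunicamycin arrays and at the floor of the scale on both 24 h ones, so no fold is given. Here 41.1% of all tested miRNAs were called, 33.7% as lower, 51.4% lay wholly below untreated and the median was -0.21. Being called in wild type cells was therefore common on these arrays, and 50 of 175 miRNAs at 12 h and 44 at 24 h had a lower log2 difference than miR-103. In knockout cells the numbers with a lower difference were 23 at 12 h and 30 at 24 h.

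miR-107 passed the limma test in none of the 10 comparisons made, also 0 at an unadjusted p under 0.05. miR-103 passed in the 2 above, and had an unadjusted p under 0.05 in 3 of 10. In limma that p was 0.02 at 12 h in knockout cells, and 0.0185 at 12 h and 0.0178 at 24 h in wild type cells. In knockout cells the log2 difference of miR-107 was -0.34 ± 0.16 at 12 h (95% interval -0.72 to 0.0405; limma, adjusted p = 0.215) and -0.22 ± 0.16 at 24 h (95% interval -0.60 to 0.16; limma, adjusted p = 0.484). The wild type difference was -0.0959 ± 0.16 at 12 h (95% interval -0.48 to 0.28; limma, adjusted p = 0.676) and -0.23 ± 0.16 at 24 h (95% interval -0.61 to 0.15; limma, adjusted p = 0.335). These intervals hold the median of all tested miRNAs in each of the 4 comparisons, as do those of miR-103 except at 12 h in knockout cells, and the interval at 12 h in wild type cells leaves room for a fall of 0.48 on the log2 scale. The fall in the summed fibroblast marker signal on tunicamycin arrays, given above, ran beside that of miR-103, and its part in the result was not tested.

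**Figure D2:**
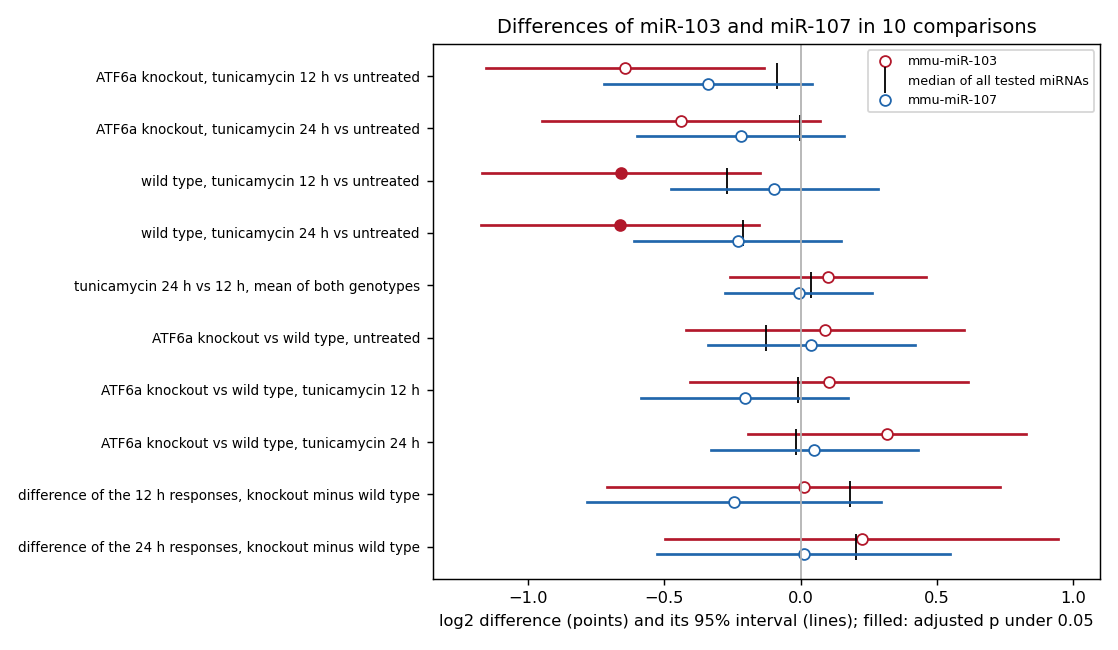
Log2 difference of miR-103 (red) and miR-107 (blue) in each of 10 comparisons, first group minus second, with the 95% interval as a line, the median of 175 tested miRNAs as a black bar and filled points where the adjusted p was under 0.05. The 2 filled points are miR-103 in wild type cells at 12 h (-0.66) and 24 h (-0.66), while the knockout values of miR-103 of -0.65 and -0.44 are open.

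Both wild type calls of miR-103 rest in part on its dim probe, which was kept because of its untreated signals. In knockout cells that probe was at log2 -3.93 and -3.94 untreated, -4.30 and -5.02 at 12 h, and -4.52 and -4.47 at 24 h. Wild type arrays gave -4.08 and -4.03 untreated, -4.76 and -4.71 at 12 h, and -5.02 and -5.02 at 24 h, where -5.02 is the floor set on scaled signals. It was not well above background on any of the 4 wild type tunicamycin arrays, nor on replicate 2 of either knockout tunicamycin group. Its measured means in wild type cells were -4.73 at 12 h and -4.05 untreated. The dimmest detected signal of 12 h replicate 2, -3.67, was above the untreated values of the probe, so no bound on its fall is given at 12 h, nor at 24 h.

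The bright probe of miR-103 alone did not pass the test. Its log2 levels were -2.21 and -2.64 at 12 h and -2.11 and -2.19 at 24 h in wild type cells, against -1.77 and -1.80 untreated. In knockout cells they were -1.88 and -2.70 at 12 h and -1.91 and -2.17 at 24 h, against -1.67 and -1.78 untreated. Tunicamycin values lay below untreated ones in each of the 4 comparisons. Of the 57 miRNAs with a probe well above background on all 12 arrays, 31.6% did so at 12 h and 24.6% at 24 h in knockout cells, and 49.1% at 12 h and 36.8% at 24 h in wild type cells. In a fit over these 57 miRNAs the log2 difference of miR-103 in knockout cells was -0.57 at 12 h (adjusted p = 0.196, limma) and -0.32 at 24 h (limma, adjusted p = 0.61). The wild type values were -0.63 at 12 h (adjusted p = 0.11, limma) and -0.36 at 24 h (limma, adjusted p = 0.383). The medians of these 57 miRNAs were -0.0934 and 0.1427 in knockout cells and -0.20 and 0.0141 in wild type cells, at 12 h and 24 h.

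The bright probe of miR-107 gave log2 differences of -0.30 at 12 h and -0.33 at 24 h in knockout cells and of -0.28 at 12 h and -0.23 at 24 h in wild type cells, none of which passed the test (limma, adjusted p between 0.283 and 0.446). Its wild type values of -2.31 and -2.32 at 12 h lay below the untreated -2.07 and -1.99. The dim probe went the other way at 12 h, with -3.71 and -4.07 after tunicamycin against -4.01 and -3.96 untreated, and was not well above background on any of the 4 arrays of scanning run 4. The 12 h wild type values of miR-107 thus overlapped the untreated ones on its dim probe and not on its bright one. In knockout cells at 12 h it was the reverse. There the bright probe gave -2.04 and -2.53 against -2.05 and -1.92 untreated, which overlapped. The dim probe gave -4.07 and -4.60 against -3.96 and -3.94, so the separation of the 12 h knockout group rested on the dim probe.

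**Figure D3:**
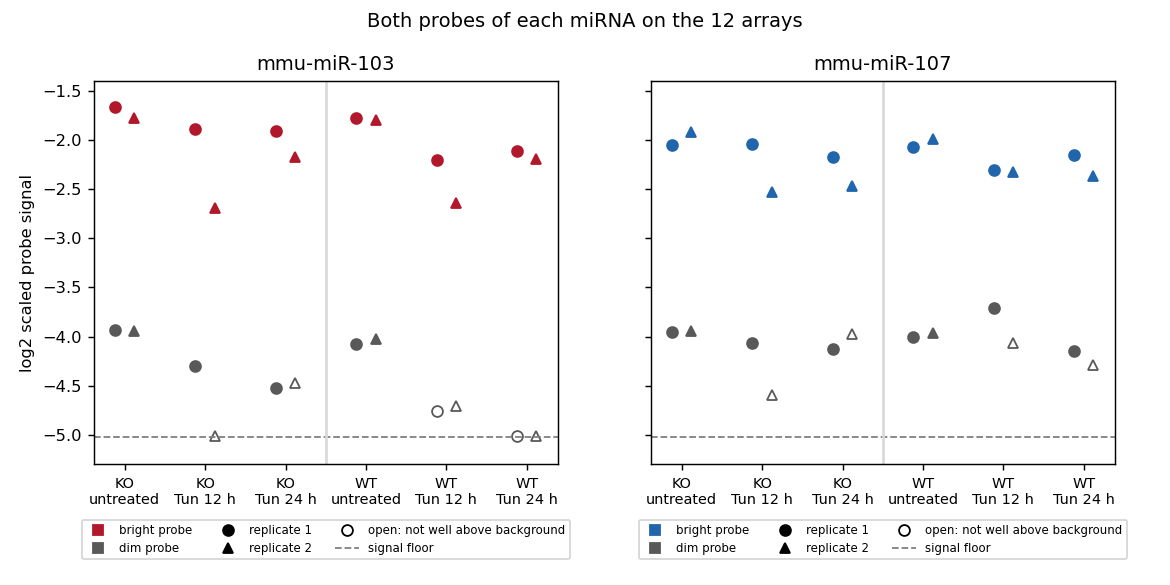
Log2 scaled signal of the bright probe (coloured) and the dim probe (grey) of miR-103 (left) and miR-107 (right) on each array, with open symbols where the probe was not well above background and a dashed line at the floor of -5.02. The bright probes lie between -2.70 and -1.67 on all 12 arrays, and the dim probe of miR-103 is open on all 4 wild type tunicamycin arrays.

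The signals of miR-107 and miR-103 were also set against each other within each array, as log2 of miR-107 minus log2 of miR-103. Levels of different probes cannot be compared, and only the change of this ratio between arrays carries information. In knockout cells the ratio was -0.20 and -0.0727 untreated, 0.0388 and 0.30 at 12 h, and 0.0663 and 0.0947 at 24 h. On wild type arrays it was -0.11 and -0.0605 untreated, 0.47 and 0.48 at 12 h, and 0.41 and 0.28 at 24 h. All 8 tunicamycin arrays lay above all 4 untreated ones. With the bright probes alone the mean ratio was -0.26 untreated, 0.0048 at 12 h and -0.28 at 24 h in knockout cells, and -0.24, 0.11 and -0.11 in wild type cells, so at 24 h in knockout cells it was no higher than untreated. With the dim probes alone it was -0.0134, 0.33 and 0.44 in knockout cells and 0.071, 0.84 and 0.80 in wild type cells. The separation therefore lay mostly in the dim probes. That of miR-103 was at the floor on both wild type 24 h arrays and on replicate 2 of the 12 h knockout group. In wild type cells the bright probes gave -0.30 and -0.19 untreated, -0.10 and 0.31 at 12 h, and -0.0394 and -0.17 at 24 h. In knockout cells both tunicamycin groups overlapped the untreated one on the bright probes. The separation was not tested.

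Across the 12 arrays the levels of both members went together, with Pearson's r of 0.81 and Spearman's rho of 0.86, and r of 0.74 without the 2 arrays farthest from the median of miR-103. For the bright probes r was 0.84 and rho 0.83, and for the dim probes r was 0.55 and rho 0.70. On the 8 arrays of scanning runs 1 to 3 r was 0.64. These points share the scaling of each array, the groups and possibly cross-binding of probes, so the correlations are a description only.

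The time comparison asked whether levels changed between 12 h and 24 h of tunicamycin. As the mean of both genotypes, 24 h minus 12 h was 0.10 ± 0.15 for miR-103 (limma, adjusted p = 0.706) and -0.0073 for miR-107 (limma, adjusted p = 1.0), where 8.0% of all tested miRNAs were called. Within scanning run 3, miR-103 at 24 h differed from 12 h by -0.12 in knockout and -0.0844 in wild type cells, and within run 4 by 0.54 and 0.0722. The sign of the miR-103 value was thus opposite in the 2 runs. For miR-107 the values were -0.095 and -0.14 in run 3 and 0.34 and -0.13 in run 4.

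The genotype comparisons asked whether the loss of ATF6a changed either miRNA at one time. In untreated cells the knockout minus wild type log2 difference of miR-103 was 0.0912 (95% interval -0.42 to 0.60; limma, adjusted p = 0.957), with 0.13 in run 1 and 0.0563 in run 2. Both knockout values lay above both wild type values, as they did for 21.1% of all tested miRNAs, and 28.0% were called in either direction. At 12 h the difference was 0.10 (95% interval -0.41 to 0.61; limma, adjusted p = 1.0), with 0.39 in run 3 and -0.18 in run 4, beside 7.43% of all miRNAs called. At 24 h it was 0.32 (95% interval -0.19 to 0.83; limma, adjusted p = 0.515), with 0.35 in run 3 and 0.28 in run 4. Both 24 h knockout values lay above both wild type values, as for 17.7% of all tested miRNAs, and 9.71% were called.

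For miR-107 the knockout minus wild type log2 difference was 0.0391 untreated (limma, adjusted p = 0.995), -0.20 at 12 h (adjusted p = 0.647, limma) and 0.0505 at 24 h (limma, adjusted p = 1.0). The groups overlapped in each of the 3 comparisons. Within runs the values were 0.0341 and 0.044 in untreated cells, -0.0449 and -0.37 at 12 h, and 0.0012 and 0.0998 at 24 h.

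Whether the tunicamycin response itself depended on ATF6a was tested as the difference of the responses, knockout minus wild type. For miR-103 it was 0.0118 at 12 h (95% interval -0.71 to 0.73; limma, adjusted p = 1.0) and 0.22 at 24 h (95% interval -0.50 to 0.95; limma, adjusted p = 0.729). For miR-107 it was -0.24 at 12 h (95% interval -0.78 to 0.29; limma, adjusted p = 0.606) and 0.0114 at 24 h (limma, adjusted p = 0.998). These comparisons called 9.71% of all tested miRNAs at 12 h and 13.1% at 24 h. The call of miR-103 in wild type and not in knockout cells was thus not shown to be a difference between the genotypes, and the intervals are wide enough to hold a difference as large as the wild type response.

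The spread of miR-103 between replicates came mostly from the 12 h knockout group. Leaving out any 1 of the 10 arrays of the other groups ended both wild type calls of miR-103, with adjusted p between 0.0629 and 0.173 at 12 h and between 0.0595 and 0.158 at 24 h in limma, while the calls held without either 12 h knockout array. The 4 arrays of scanning run 4 were also left out, as decided once the data had been examined. Then 1 array was left in each tunicamycin group and was assumed to vary like the untreated ones. With both replicates that was not so, since the SD of replicate differences over all tested miRNAs was 0.715 to 1.191 in the tunicamycin groups and 0.204 to 0.206 in the untreated groups, so the p-values on these 8 arrays rest on the smaller spread. miR-103 was then lower in knockout cells by -0.26 at 12 h (adjusted p = 0.0268, limma) and -0.39 at 24 h (limma, adjusted p = 0.015), and in wild type cells by -0.56 at 12 h (adjusted p = 0.00363, limma) and -0.65 at 24 h (limma, adjusted p = 0.00267). The same fit called 24.0% and 16.6% of all tested miRNAs as lower in knockout cells and 49.1% and 41.1% in wild type cells. The difference of its responses was then 0.30 at 12 h (adjusted p = 0.0372, limma) and 0.26 at 24 h (limma, adjusted p = 0.0435), beside medians of 0.29 and 0.29 for all tested miRNAs, of which 40.0% and 46.9% were called. Relative to those medians the difference of miR-103 was 0.0034 and -0.0297. miR-107 passed in no comparison on these 8 arrays.

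The size of the fall depended on how the arrays were processed. Scaled on all probes, miR-103 in wild type cells had a log2 difference of -0.96 at 12 h and -0.35 at 24 h, and with normexp background correction -0.24 and 0.11, and neither passed the test in limma. These settings also shifted the median of all tested miRNAs, to -0.56 and 0.0 in wild type cells when scaled on all probes. Relative to that median, miR-103 lay lower after tunicamycin in all 7 ways of processing, by between -1.11 and -0.14 at 12 h and between -1.01 and -0.14 at 24 h in wild type cells. In knockout cells the range was -1.05 to -0.24 at 12 h and -0.87 to -0.23 at 24 h. miR-107 lay below the median in all 7 ways in knockout cells at both times and in wild type cells at 24 h. At 12 h in wild type cells it did so in 3 of 7, with a range of -0.51 to 0.17. Any median has miRNAs below it, and the 7 ways reuse the same arrays, so they are not separate evidence. How many of all tested miRNAs lay below it in all 7 was not counted. Of the 7, only the reported way called miR-103 in wild type cells.

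**Figure D4:**
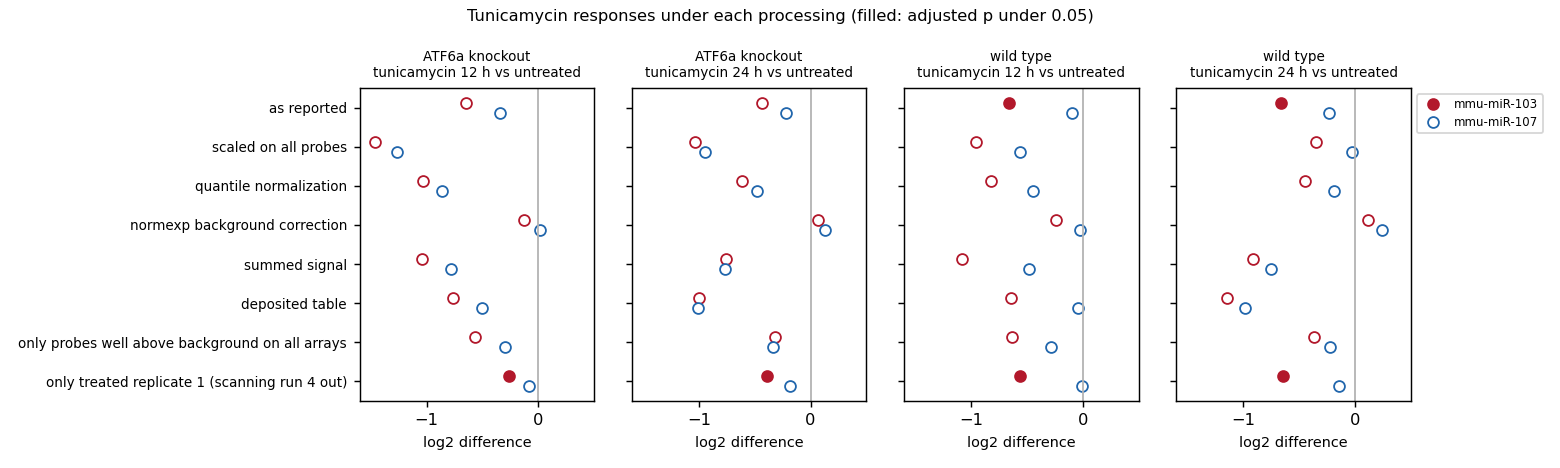
Log2 difference of miR-103 (red) and miR-107 (blue) between tunicamycin and no treatment under each processing of the arrays, by genotype and time, with filled points where the adjusted p was under 0.05. In wild type cells at 12 h the values of miR-103 run from -1.08 with the summed signal to -0.24 with normexp, and of the settings drawn, the reported one and the one without scanning run 4 are filled there; fits with a block, which keep the reported values and calls, are not drawn.

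The miRNAs whose levels followed the members most closely were taken, by Pearson's r with the mean of both members over the 12 arrays, from the 30 other miRNAs with every used probe well above background and above the floor on all arrays. They were miR-199a-3p (r 0.89, rho 0.88), miR-21 (r 0.86, rho 0.82), miR-125b-5p (r 0.85, rho 0.86), let-7i (r 0.84, rho 0.80) and miR-214 (r 0.82, rho 0.77). On the 8 arrays of scanning runs 1 to 3 their r was 0.95, 0.88, 0.95, 0.86 and 0.82. At the other end miR-669f had r of -0.85. miR-199a-3p, which is abundant in mesenchymal cells, had levels of 1.56 and 1.55 in untreated knockout cells, 0.61 and 0.14 at 12 h, and 0.56 and 0.43 at 24 h. Wild type levels were 1.25 and 1.24 untreated, 0.34 and 0.37 at 12 h, and 0.33 and 0.46 at 24 h. As with miR-103, replicate 2 of the 12 h knockout group was its lowest value. Its log2 difference was -1.18 at 12 h and -1.06 at 24 h in knockout cells and -0.89 and -0.85 in wild type cells. It was picked for following the members over these same arrays. That choice favours a fall alongside theirs, so no test of it is given. All of these arrays share scaling, groups and runs, and 3 of the 5 (miR-199a-3p, miR-21 and miR-214) are in the fibroblast marker list.

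A further group of miRNAs is shown because the 7 letters AGCAGCA, which begin miR-103 and miR-107 at base 1, stand 1 base later in them, as their seed, at bases 2 to 8 (capitals). They are the miR-15 and miR-16 family, known for lowering cyclins and the survival factor Bcl2.
mmu-miR-15a-5p: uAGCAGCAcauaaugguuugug
mmu-miR-15b-5p: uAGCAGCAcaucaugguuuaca
mmu-miR-16-5p: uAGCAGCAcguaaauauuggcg
mmu-miR-322-5p: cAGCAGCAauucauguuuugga
The seed AGCAGCA occurred in 10 mature names of the RefSeq table. Of 7 such or related miRNAs on the array, listed with earlier results known, 6 were tested and miR-503, whose seed differs, was not. In knockout cells 1 was lower at each time, miR-322, by -1.15 ± 0.14 at 12 h (adjusted p = 0.0018, limma) and -0.91 ± 0.14 at 24 h (limma, adjusted p = 0.00498), where 14.3% and 8.0% of all 175 were lower. The medians of the 6 there were -0.0186 and 0.0863, against -0.0872 and -0.0005 for all 175. In wild type cells 2 were lower at each time, near the 38.3% and 33.7% of all 175, with medians of -0.26 and -0.13 against -0.27 and -0.21 for all. They were miR-322, by -0.95 ± 0.14 at 12 h (adjusted p = 0.00138, limma) and -1.04 ± 0.14 at 24 h (limma, adjusted p = 0.00103), and miR-497, which had a probe at the floor on 7 of 12 arrays and is given no size.

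miR-15a, miR-15b and miR-16, detected on all 12 arrays, passed the limma test in no comparison after adjustment, and at an unadjusted p under 0.05 miR-15b did so in 6 of 10 and the other two in 0. At 12 h in wild type cells their log2 differences were -0.0702, -0.30 and -0.19, and in knockout cells -0.0325, 0.0957 and -0.0046. Their r with the members was 0.37 for miR-15a and 0.17 for miR-15b over the 12 arrays. miR-322, encoded on the X chromosome beside miR-503, was lower in knockout than in wild type cells by -0.85 ± 0.14 untreated (limma, adjusted p = 0.00272), -1.05 ± 0.14 at 12 h (adjusted p = 0.00362, limma) and -0.71 ± 0.14 at 24 h (limma, adjusted p = 0.0151).

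A pair of lists was set beside the members for their known roles. Of 8 miRNAs linked to insulin action and lipids, 6 were tested, and in knockout cells 0 passed in limma at either time, with 1 at 12 h and 0 at 24 h at an unadjusted p under 0.05 and medians of -0.17 and -0.11, against -0.0872 and -0.0005 for all 175. In wild type cells 2 were lower at each time, miR-143, known for impairing insulin signalling in mouse liver, by -1.30 ± 0.27 at 12 h and -1.50 ± 0.27 at 24 h, and miR-378, encoded within the gene of the metabolic coactivator PGC-1β, by -0.61 ± 0.11 and -0.53 ± 0.11 (limma, adjusted p between 0.003 and 0.0068). That count is near the 38.3% and 33.7% of all 175 called lower, and the list medians in wild type cells were -0.31 and -0.0401 against -0.27 and -0.21. miR-143 was well above background on 10 of 12 arrays, and miR-378 on 7. miR-378 also had a probe at the floor on 5 arrays, so its sizes depend on that floor. In knockout cells miR-143 gave -0.67 at 12 h and -0.54 at 24 h, neither of which passed. Of 7 miRNAs linked to p53, 3 were tested, all of the miR-34 family, which p53 induces. Of these 3, 2 were lower in knockout cells at 12 h and 0 at 24 h, also 0 at an unadjusted p under 0.05, beside 14.3% and 8.0% of all 175 called lower, and the medians were -0.64 and -0.0795 against -0.0872 and -0.0005. For wild type cells 1 was lower at each time, beside 38.3% and 33.7% of all, with medians of -0.26 and 0.40 against -0.27 and -0.21. miR-34a was lower in knockout cells by -0.41 ± 0.10 at 12 h (limma, adjusted p = 0.0366), and in wild type cells by -0.88 ± 0.10 at 12 h (adjusted p = 0.000753, limma) and -0.43 ± 0.10 at 24 h (limma, adjusted p = 0.0131). At 24 h against 12 h miR-34a was higher by 0.42 and miR-34b-5p by 0.64 (limma, adjusted p = 0.0161 for each), beside 8.0% of all 175 called. In that comparison miR-34c, at 0.56, did not pass (limma, adjusted p = 0.133), nor did miR-103 and miR-107.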

How the data were processed

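Total RNA, 100 ng per array, was labelled with Cy3 and hybridised to 12 Agilent mouse miRNA arrays, 2 per group, per the labels' protocols. The deposited spot intensities come from Agilent Feature Extraction, version 10.7.1.1 (submitters' processing notes). Per the file headers they are linear, background-subtracted and not scaled between arrays. In the deposited series table the authors gave log2 values, and all 2034 matched the summed signal of the software on a log2 scale within 2e-06.

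Control spots (715 of 13715) and spots marked as outliers (302 to 667 per array) were left out, no spot was saturated, and spots of a probe were averaged (1857 probes, 650 miRNAs). A probe counted as well above background where most of its spots carried the software's mark. Signals were scaled per array to the 75th percentile of the 87 probes that passed on every array, floored at 0.0309 and put on a log2 scale. The value of a miRNA averaged those probes that passed on both replicates of 1 or more groups (306 probes, 175 miRNAs). All 6 groups entered one model in limma 3.58.1 (R 4.3.3; lmFit, eBayes, 6 residual degrees of freedom), with Benjamini-Hochberg adjustment over the 175 miRNAs in each of the 10 comparisons and 0.05 as the threshold. All p-values are two-sided. The fit was checked on simulated data in which all groups varied alike and scanning runs did not differ. The measured arrays were not so, and the check does not show how the fit behaves on them.

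The members and lists were chosen with earlier results of these arrays known. miRNAs named were the members, the 5 most alike by Pearson's r, and tested members of 3 lists; miR-669f was added after its value was seen. The file headers gave slides and scanning runs. Alternatives covered scaling, background correction, the summed signal, the deposited table, dim probes, blocks and each array left out. normexp (offset 50) was run on median spot signals, since mean spot signals are not among the columns used here. Array names are those of its design, and their match to RefSeq names (GRCm38.p6) was by name, with miR-195 and miR-497 read as miR-195a and miR-497a. The number of arrays limits the precision.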

Additional observations from a re-analysis of the deposited data

How the results depend on the processing

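The order of comparisons below is tunicamycin against untreated in knockout cells at 12 h and 24 h and in wild type cells at 12 h and 24 h, 24 h against 12 h, knockout against wild type untreated, at 12 h and at 24 h, and the difference of the responses at 12 h and 24 h. As reported, limma called 30, 18, 78, 72, 14, 49, 13, 17, 17 and 23 miRNAs. Scaled on all probes it called 0 in each of the 10, with 10, 11, 13, 11, 2, 5, 0, 2, 1 and 2 at an unadjusted p under 0.05. With quantile normalization it called 5, 9, 7, 7, 0, 6, 0, 0, 0 and 0 (for the zeros, 8, 2, 6, 10 and 11 at an unadjusted p under 0.05). With normexp it called 5, 5, 1, 3, 1, 0, 0, 0, 0 and 0 (for the zeros, 19, 4, 13, 1 and 1 unadjusted), and with the summed signal 10, 9, 29, 27, 0, 8, 0, 0, 2 and 2 (9, 12 and 6). In the deposited table it called 0, 3, 0, 0, 0, 1, 0, 0, 0 and 0 (30, 28, 22, 20, 8, 7, 4 and 4). With only probes well above background on all arrays it called 7, 6, 19, 21, 1, 0, 1, 2, 0 and 0 of 57 (5, 2 and 4). With the scanning run as a random block it called 30, 20, 84, 73, 14, 55, 23, 23, 20 and 31. Without run 4, chosen after the data were seen, it called 66, 52, 110, 97, 35, 95, 53, 43, 70 and 82.

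miR-103 kept its direction in wild type cells at 12 h in every setting and lost its call there scaled on all probes (-0.96), with quantile normalization (-0.83), normexp (-0.24), the summed signal (-1.08), the deposited table (-0.64) and only bright probes (-0.63). At 24 h it lost its call in the same settings, at -0.35, -0.45, 0.11 (normexp, direction turned), -0.92, -1.15 and -0.36. Scaled on all probes its sign also turned at 24 h between genotypes (-0.15) and for the response differences (-0.51 at 12 h, -0.69 at 24 h), and with quantile normalization for the response differences (-0.21, -0.17). With normexp it turned in knockout cells at 24 h (0.0654), between genotypes (-0.16 untreated, -0.042 at 12 h, -0.21 at 24 h) and for the 24 h response difference (-0.0483). It turned between untreated genotypes with the summed signal (-0.0157). In the deposited table it turned for 24 h against 12 h (-0.37) and the 12 h response difference (-0.12). Without run 4 it was called in knockout cells (-0.26, -0.39), between genotypes at 12 h (0.39) and 24 h (0.35) and for the response differences (0.30, 0.26), and 24 h against 12 h turned (-0.10).

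The signs of miR-107 that turned belonged to values that had not passed. Scaled on all probes these were 24 h against 12 h (0.43), the 24 h genotypes (-0.43) and the 24 h response difference (-0.92), and with quantile normalization the same comparisons (0.32, -0.016, -0.29). With normexp they were knockout at 12 h (0.0152) and 24 h (0.13), wild type at 24 h (0.24), 24 h against 12 h (0.19), the untreated (-0.17) and 24 h genotypes (-0.28) and the response differences (0.0437, -0.10). With the summed signal they were the untreated (-0.047) and 24 h genotypes (-0.0616) and the 24 h response difference (-0.0146). In the deposited table they were the 12 h genotypes (0.047) and the 24 h response difference (-0.0295). With only bright probes they were 24 h against 12 h (0.0108), the 12 h (0.0299) and 24 h genotypes (-0.0628) and the 24 h response difference (-0.11). Without run 4 it was the 24 h response difference (-0.0379). The cause of these changes was not tested.

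With each array left out in turn, miR-103 ranged, in the order above, from -1.03 to -0.26, -0.49 to -0.39, -0.75 to -0.56, -0.68 to -0.65, -0.0903 to 0.29, 0.062 to 0.12, -0.28 to 0.48, 0.26 to 0.37, -0.37 to 0.39 and 0.17 to 0.28. miR-107 ranged from -0.59 to -0.0867, -0.26 to -0.18, -0.19 to -0.0027, -0.32 to -0.14, -0.13 to 0.12, 0.0023 to 0.0759, -0.46 to 0.0483, -0.0367 to 0.14, -0.50 to 0.0092 and -0.0757 to 0.0986. Called miRNAs ranged from 13 to 72, 8 to 32, 55 to 94, 53 to 87, 2 to 58, 35 to 65, 6 to 35, 9 to 29, 10 to 34 and 11 to 45. Without 12 h knockout replicate 1, miR-103 was called in knockout cells at 12 h (-1.03) and for 24 h against 12 h (0.29), and miR-107 in knockout cells at 12 h (-0.59) and between 12 h genotypes (-0.46). Without 12 h knockout replicate 2, miR-103 was called between 12 h genotypes (0.48). Without either, miR-103 was called in knockout cells at 24 h and between the 24 h genotypes.

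Replicate numbers are not a stated pairing. Deviations of same-numbered arrays from their group means correlated at 0.818 to 0.941 among the tunicamycin groups, at 0.744 between the untreated groups and at -0.661 to -0.451 between untreated and tunicamycin groups. Those numbers coincide with the scanning runs. The replicate block left the wild type difference of miR-103 at -0.66 (limma, adjusted p = 0.0292 at 12 h and 0.0313 at 24 h) and changed no call of either member, nor did the scanning run as a block or as a random block. The scanning run as a fixed block allows no comparison of treatment, which differs between slides. The bright probes stood above background throughout, and the dim probes limit what can be said of miR-103 after tunicamycin.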
